A study of Mus musculus with 2 samples.

Results

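The 10 genes described here carry the TGF-beta signal in microglia from ligand to nucleus. They are the ligand *Tgfb1*, its activator *Nrros*, the receptors *Tgfbr1* and *Tgfbr2*, the signal-carrying *Smad2*, *Smad3* and *Smad4*, and the inhibitors *Smad7*, *Ski* and *Skil*. They were taken by gene symbol from a table of 13549 genes, and all 10 had 1 row each. The table compares 2 libraries of bulk RNA sequencing from microglia, the resident macrophages of nervous tissue, sorted from mouse retina on postnatal day 5. All animals (CD11c-Cre-gfp;Rosa-TDTom) carried a Cre-GFP fusion under the control of CD11c regulatory sequence (the gene *Itgax*) and a Rosa26 TdTomato reporter that Cre switches on for good. Cells with GFP and TdTomato (Cd11c-active, 4041 cells) used the promoter when they were sorted, and cells with TdTomato alone (Cd11c-lineage, 5441 cells) had by this design used it earlier. Both were sorted from the same pool, given as 8 retinas with a 4 to 4 split of females and males, and the number of animals is not stated.

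TGF-beta1 is made as a latent complex in which its propeptide, cut by the protease furin, still encloses the growth factor. On microglia the latent complex is tethered by NRROS (also called LRRC33) and opened by an integrin on a neighbouring cell. Free TGF-beta binds the type II receptor, which phosphorylates the type I receptor. This in turn phosphorylates SMAD2 and SMAD3, which enter the nucleus with SMAD4. SMAD7 blocks the type I receptor, and SKI and SKIL repress SMAD targets. *Smad7* and *Skil* are themselves induced by the pathway and so act as negative feedback. Microglia need this signal to take on and keep their homeostatic state.

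The libraries held 12943998 (Cd11c-active) and 13402625 (Cd11c-lineage) reads over all genes. With 1 library per group no test of the conditions could be fitted, and no ratio below has a replicate check. Ratios are log2 values, with Cd11c-active as numerator, of reads scaled by TMM, which raised every ratio by 0.14 against scaling to library totals. Each is given with a 95% counting interval (exact Clopper-Pearson on the reads, counting error only). A widened interval is given beside it, because genes differed between the libraries by far more than counting error. For that interval the reads were first divided by the overdispersion, the variance of the log2 ratio over its counting variance among all genes of the same read range. It was 80.2 in the 1978 genes of the lowest range, from 800 reads, and 234 in the 252 genes with the most reads. A gene counts as called when it differs at least 2-fold, and the background is the share of genes so called. Microglial identity markers were present in both libraries: all 10 were measured, with summed levels of 20917 and 20119 CPM (reads relative to the scaled library size). *Itgax*, whose promoter the sort used, was at 0.69 on 2409 and 1698 reads (widened interval -0.27 to 1.73).

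Other cells were also present, and unequally. All 10 endothelial markers were higher in Cd11c-active, at 692 CPM in sum against 73.7, and 6 of them (*Cldn5*, *Flt1*, *Tek*, *Esam*, *Plvap* and *Emcn*) had 0 reads in Cd11c-lineage. Of 10 mural cell markers 7 were listed, with 62.8 against 3.91 CPM in sum, where *Pdgfrb*, *Rgs5*, *Cspg4*, *Kcnj8* and *Abcc9* were at 0 in Cd11c-lineage and *Tagln* and *Notch3* at 0 in Cd11c-active. The 4 listed of 6 border macrophage markers summed to 21.2 and 128 CPM, and *Cd163*, *Lyve1* and *F13a1* had 0 reads in Cd11c-active. The 12 listed of 14 retinal neuron markers summed to 143 and 273 CPM, with *Pdc* at 0 reads in Cd11c-active. The 5 listed of 7 Muller glia and astrocyte markers summed to 2276 and 2421 CPM, nearly all of it *Glul* (27773 and 33293 reads), and *Rlbp1* had 0 reads in Cd11c-lineage. The 5 listed of 10 monocyte, neutrophil and dendritic markers summed to 19.0 and 17.0 CPM: *Ccr2* and *Zbtb46* were at 0 in Cd11c-lineage, and *S100a8*, *S100a9* and *Plac8* in Cd11c-active. Several members are expressed in endothelial cells and other macrophages too, and the part of these cells in the values below was not tested. In bulk RNA, fewer cells of a type cannot be told apart from less RNA per cell.

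Levels of different genes are compared here per kilobase of the longest annotated transcript. The type I receptor *Tgfbr1* had the highest level of the 10 in both libraries, at 256 CPM per kilobase in Cd11c-active and 283 in Cd11c-lineage. *Ski* came next at 101 and 129. *Skil* followed in Cd11c-lineage at 124 CPM per kilobase, and the step from there to *Tgfbr2* at 79.5 was within the widened interval. *Smad2* was lowest in both, at 11.99 and 12.6. The co-repressors therefore stood above all 3 signal-carrying SMADs, which lay between 11.99 and 27.3 CPM per kilobase in Cd11c-active and between 12.6 and 21.5 in Cd11c-lineage. *Tgfb1* ranked 3 of 10 in Cd11c-active (94.3) and 6 of 10 in Cd11c-lineage (49.3). Of the 9 steps between neighbours in the order, 1 exceeded the widened interval in Cd11c-active (*Tgfbr1* over *Ski*) and 2 in Cd11c-lineage (*Tgfbr1* over *Ski*, and *Tgfb1* over *Nrros*). The order of all other neighbours is not settled by these reads.

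**Figure D1:**
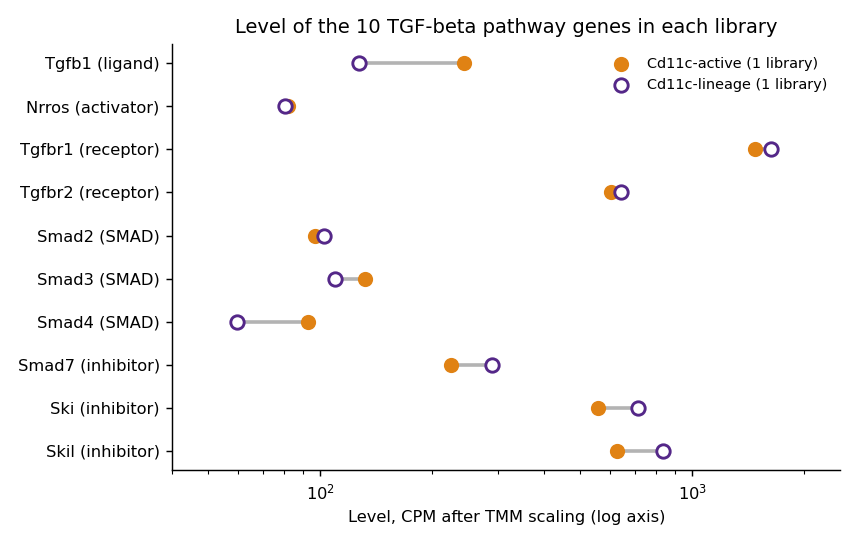
Level of each of the 10 genes in both libraries (CPM after TMM scaling, log axis), with 1 point per library and a grey line joining the pair. The Cd11c-active point lies to the right of the other for Tgfb1 (243 against 127) and Smad4 (92.5 against 59.6) and to its left for Ski, Skil and Smad7, and the points of Nrros nearly coincide.

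*Tgfb1* (ENSMUSG00000002603), the ligand, was read 2995 times in Cd11c-active against 1783 in the lineage library (243 and 127 CPM). It was the member with the highest ratio, 0.93 (counting interval 0.85 to 1.02), a 1.91-fold higher level in Cd11c-active. It was also the 1 member of 10 whose widened interval, 0.04 to 1.91, excluded 0, and no member had a widened interval below 0. This did not hold under other settings: the interval of *Tgfb1* was -0.09 to 1.78 under library totals and -0.10 to 1.77 once a trend of ratios with the length and GC of transcripts was taken out, so that 0 of 10 members then excluded 0. Among 2690 genes with as many reads as the members (1980 to 41086 over both libraries), 2.45% had a widened interval above 0 and 1.15% below. The shares were 2.66% and 1.06% among genes with at least 1000 reads, and 1.66% and 0.491% among all with at least 20. Of the 500 genes nearest to *Tgfb1* in abundance, whose ratios had a robust SD of 0.47, 97.4% had a lower ratio.

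*Nrros* (ENSMUSG00000052384), which holds latent TGF-beta1 on the microglial surface, had 1010 and 1130 reads, or 81.8 and 80.4 CPM. Its ratio was 0.02 (counting interval -0.10 to 0.15; widened -1.19 to 1.32). Within each library, *Tgfb1* had 2.97 reads per read of *Nrros* in Cd11c-active and 1.58 in Cd11c-lineage. This is a log2 change of 0.91, but its widened interval of -0.70 to 2.47 included 0. Summed, the ligand and its tether had 4005 and 2913 reads, a ratio of 0.65 (widened -0.08 to 1.37).

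No member reached 2-fold in either direction. Among genes with as many reads, 2.38% were at least 2-fold higher and 1.78% at least 2-fold lower in Cd11c-active, so 0 of 10 is near what genes of this abundance gave. Over all 13037 genes with at least 20 reads the shares were 23.3% and 21.6%, mostly through genes of few reads.

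**Figure D2:**
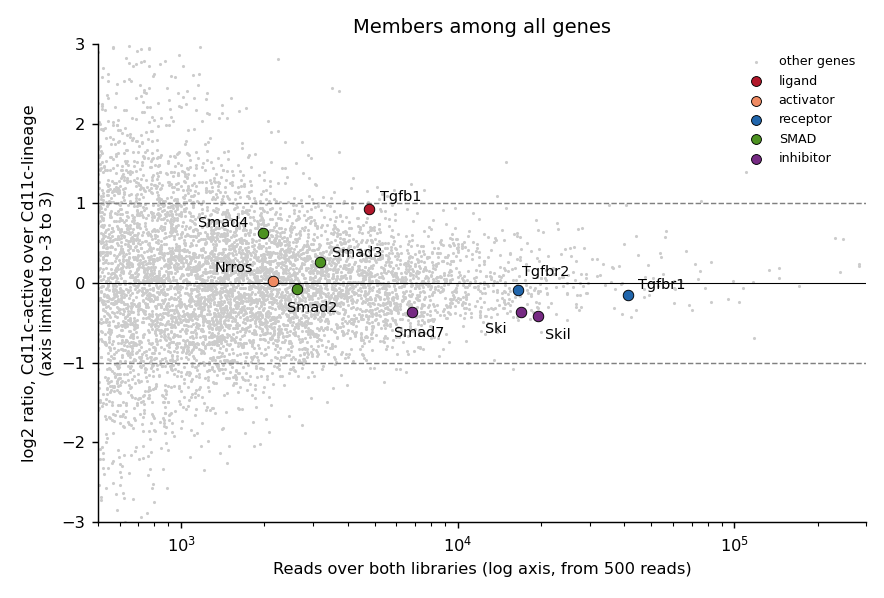
The log2 ratio (vertical axis, limited to -3 to 3) against reads over both libraries (log axis, from 500 reads), with each gene as a grey point and the 10 members coloured by role. The spread of the grey points narrows with reads, and Tgfb1 at 0.93 lies near the upper edge of genes like it in abundance while Nrros at 0.02 lies in the middle.

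Promoter sequence is shown for *Tgfb1*, at the top of the ratios, for *Ski*, among the lower ones, and for *Tgfbr2* and *Nrros*, which lay near 0. Each is the 250 bases before the annotated start, read from RefSeq for GRCm38.p6, which is not the build named for the deposited table. The *Tgfb1* window is chr7:25686752-25687001 (plus strand), that of *Ski* chr4:155222536-155222785 (minus), that of *Tgfbr2* chr9:116175364-116175613 (minus) and that of *Nrros* chr16:32165595-32165844 (minus). Capitals mark CAGAC or its reverse complement GTCTG, the core letters bound by SMAD proteins, and GGGCGG or CCGCCC, the core of the SP1 box.
Tgfb1: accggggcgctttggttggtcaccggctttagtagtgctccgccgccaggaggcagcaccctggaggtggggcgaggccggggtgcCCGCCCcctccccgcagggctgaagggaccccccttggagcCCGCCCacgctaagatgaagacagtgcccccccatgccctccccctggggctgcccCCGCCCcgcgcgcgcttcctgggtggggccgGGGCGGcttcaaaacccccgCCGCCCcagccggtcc
Ski: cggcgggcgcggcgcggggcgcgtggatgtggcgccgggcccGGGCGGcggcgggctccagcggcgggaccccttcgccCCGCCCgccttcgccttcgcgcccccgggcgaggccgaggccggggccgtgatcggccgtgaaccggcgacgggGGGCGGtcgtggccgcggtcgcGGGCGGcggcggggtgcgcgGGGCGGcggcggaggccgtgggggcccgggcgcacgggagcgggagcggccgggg
Tgfbr2: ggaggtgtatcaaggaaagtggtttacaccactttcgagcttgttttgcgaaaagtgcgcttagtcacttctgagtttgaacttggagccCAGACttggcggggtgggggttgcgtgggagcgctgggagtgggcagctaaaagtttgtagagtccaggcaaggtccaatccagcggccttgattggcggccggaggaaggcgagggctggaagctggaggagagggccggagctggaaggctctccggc
Nrros: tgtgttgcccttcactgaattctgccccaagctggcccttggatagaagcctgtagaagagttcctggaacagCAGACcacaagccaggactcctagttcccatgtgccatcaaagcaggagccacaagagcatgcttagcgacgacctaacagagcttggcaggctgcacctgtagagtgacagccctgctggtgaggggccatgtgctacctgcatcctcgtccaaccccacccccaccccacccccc

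The *Tgfb1* and *Ski* windows held 5 SP1 cores each and no CAGAC, with a GC content of 75.2% and 87.6%. The *Tgfbr2* and *Nrros* windows held 1 CAGAC each and no SP1 core, both at 58.4% GC. This is no contrast between high and low ratios, since *Smad3* (ratio 0.26) and 1 of the 2 *Tgfbr1* windows (ratio -0.14) held 2 SP1 cores each and no CAGAC, at 69.2% and 74.8% GC. CAGAC occurred on either strand in 42.2% of 32536 such windows and the SP1 core in 33% of them, so a single match sets no window apart. The palindrome GTCTAGAC (in 0.169% of windows) and AGGAAGT, letters bound by the myeloid factor PU.1 (in 7.7%), were in none of the 4. The median GC content over all windows was 52.4%.

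The receptors differed little between the libraries. *Tgfbr1* (ENSMUSG00000007613), the type I kinase, had 18197 and 22889 reads, or 1474 and 1629 CPM, and a ratio of -0.14 (counting interval -0.17 to -0.12; widened -0.59 to 0.30). *Tgfbr2* (ENSMUSG00000032440), the type II kinase that binds the ligand, had 7467 and 9036 reads, or 605 and 643 CPM, and a ratio of -0.09 (-0.13 to -0.04; widened -0.82 to 0.61). Both counting intervals lay below 0, and both widened intervals included it. Under library totals the ratios were -0.28 and -0.22, and with the trend with length and GC content removed they were 0.03 and 0.06. The balance of the pair, which does not depend on scaling, was 2.44 reads of *Tgfbr1* per read of *Tgfbr2* in Cd11c-active and 2.53 in Cd11c-lineage. Per kilobase these were 3.43 and 3.56, a log2 change of -0.06 (widened -0.90 to 0.81).

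Among the signal-carrying SMADs, *Smad2* (ENSMUSG00000024563) had 1197 and 1434 reads, or 96.9 and 102 CPM, and a ratio of -0.07 (counting interval -0.19 to 0.04; widened -1.23 to 1.01). *Smad3* (ENSMUSG00000032402), the one of the pair that binds DNA directly, had 1625 and 1540 reads, or 132 and 110 CPM, and a ratio of 0.26 (0.16 to 0.37; widened -0.74 to 1.28). *Smad4* (ENSMUSG00000024515), the partner shared with the BMP branch, had 1142 and 838 reads, or 92.5 and 59.6 CPM. At 0.63 (0.50 to 0.76) its ratio was the second highest of the members, a 1.55-fold higher level in Cd11c-active. *Smad4* also had the fewest reads of the 10, and its widened interval of -0.60 to 2.003 included 0. The summed reads of the 3 SMADs were 3964 and 3812, a ratio of 0.24 (widened -0.40 to 0.84), or 0.11 under library totals.

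All 3 inhibitors had ratios below 0, of similar size with TMM scaling alone. With the trend with length and GC content removed the sizes differed more, at -0.48 for *Smad7*, -0.39 for *Ski* and -0.21 for *Skil*. *Smad7* (ENSMUSG00000025880) had 2773 and 4060 reads, or 225 and 289 CPM, and a ratio of -0.36 (counting interval -0.43 to -0.29; widened -1.29 to 0.52). *Ski* (ENSMUSG00000029050) had 6886 and 10046 reads, or 558 and 715 CPM, and a ratio of -0.36 (-0.40 to -0.31; widened -1.11 to 0.33). *Skil* (ENSMUSG00000027660) had 7733 and 11718 reads, or 626 and 834 CPM, and a ratio of -0.41 (-0.45 to -0.37; widened -1.09 to 0.25). The levels in Cd11c-lineage were thus 1.29-fold, 1.28-fold and 1.33-fold those in Cd11c-active. Each counting interval lay below 0 and each widened interval included it. Of the 500 genes nearest in abundance, 20.4% had a lower ratio than *Smad7*, 13.2% than *Ski* and 9% than *Skil*.

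Summed over the 3 inhibitors the reads were 17392 and 25824, or 1409 and 1838 CPM. The ratio of the sum was -0.38 (counting interval -0.41 to -0.36). With TMM scaling the widened interval of the sum, -0.81 to 0.04, included 0. Under library totals the ratio of the sum was -0.52. That scaling lowers both bounds by the same amount, which is more than 0.04, so the interval would then lie below 0. Whether the interval of the sum excludes 0 therefore depends on the scaling, and intervals of sums may be too narrow. Within the inhibitors the read ratios of the libraries were close. There were 0.403 reads of *Smad7* per read of *Ski* in Cd11c-active and 0.404 in Cd11c-lineage, and 0.890 and 0.857 reads of *Ski* per read of *Skil*. The widened intervals of these changes, -1.18 to 1.18 and -0.97 to 1.03 on the log2 scale, are wide enough that the balance could still differ by about 2-fold. With the trend of ratios with length and GC content removed, the changes were -0.09 for *Smad7* over *Ski*, -0.19 for *Ski* over *Skil* and -0.27 for *Smad7* over *Skil*.

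**Figure D3:**
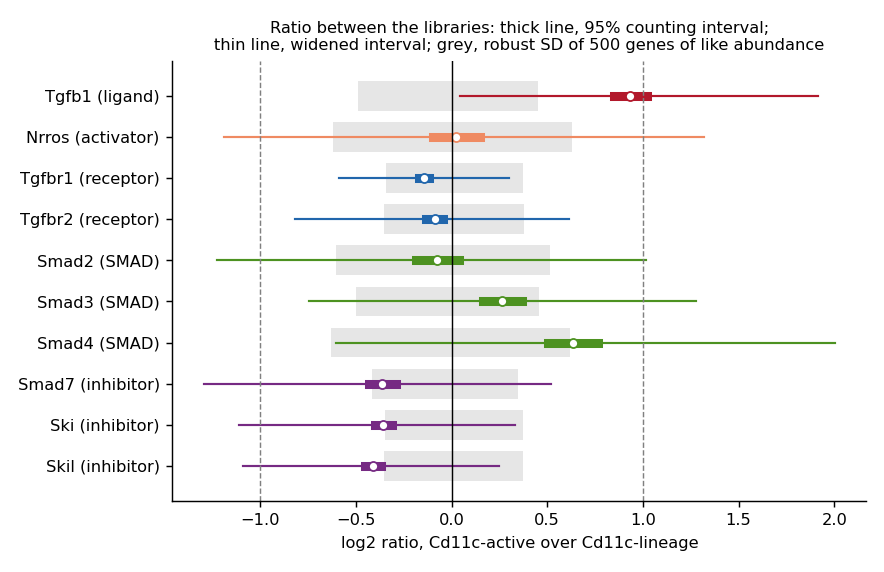
The log2 ratio of each member (point) with its 95% counting interval (thick line) and its widened interval (thin line), and as a grey bar the median plus and minus 1 robust SD of the 500 genes nearest in abundance. Dashed lines mark 2-fold. Tgfb1 is the only member whose widened interval as plotted, 0.04 to 1.91, excludes 0 (under library totals it is -0.09 to 1.78), and Smad7, Ski and Skil lie together between -0.36 and -0.41.

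The ratio of 2 members within a library needs no scaling between libraries, so all 45 pairs were compared in this way. In 7 pairs the ratio differed at least 2-fold between the libraries, and in 4 the widened interval excluded 0, without adjustment for the number of pairs. All 4 contained *Tgfb1* and so rest on the reads of that gene, and they are not 4 separate results. Among all pairs of the 2690 genes with as many reads, 14.0% differed at least 2-fold, so 7 of 45 is near the background, and 3.69% had a widened interval that excluded 0. Per read of *Skil* there were 0.387 reads of *Tgfb1* in Cd11c-active and 0.152 in Cd11c-lineage, a log2 change of 1.35 (widened interval 0.21 to 2.54). Against *Smad7* the change was 1.30 (0.01 to 2.66), against *Ski* 1.29 (0.15 to 2.54) and against *Tgfbr1* 1.08 (0.07 to 2.16). Pair ratios do not depend on scaling but do depend on the trend with length and GC content. With the trend removed, the change against *Ski* was 1.19 (0.04 to 2.44), against *Smad7* 1.27 (-0.01 to 2.63), against *Skil* 1.002 (-0.14 to 2.20) and against *Tgfbr1* 0.76 (-0.25 to 1.85), so 1 of the 4 intervals still excluded 0. With the overdispersion also estimated after that removal, 3 did, those against *Ski*, *Smad7* and *Skil*. The remaining 3 pairs past 2-fold were *Tgfb1* over *Tgfbr2* (1.02; -0.13 to 2.26), *Tgfb1* over *Smad2* (1.01; -0.43 to 2.54) and *Smad4* over *Skil*. The last of these changed by 1.05, with an interval of -0.38 to 2.58. With the trend removed these 3 were at 0.73, 0.66 and 0.81, and 4 pairs were past 2-fold: *Tgfb1* over *Smad7*, *Ski* and *Skil*, and *Smad4* over *Smad7* (1.08; -0.47 to 2.75).

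**Figure D4:**
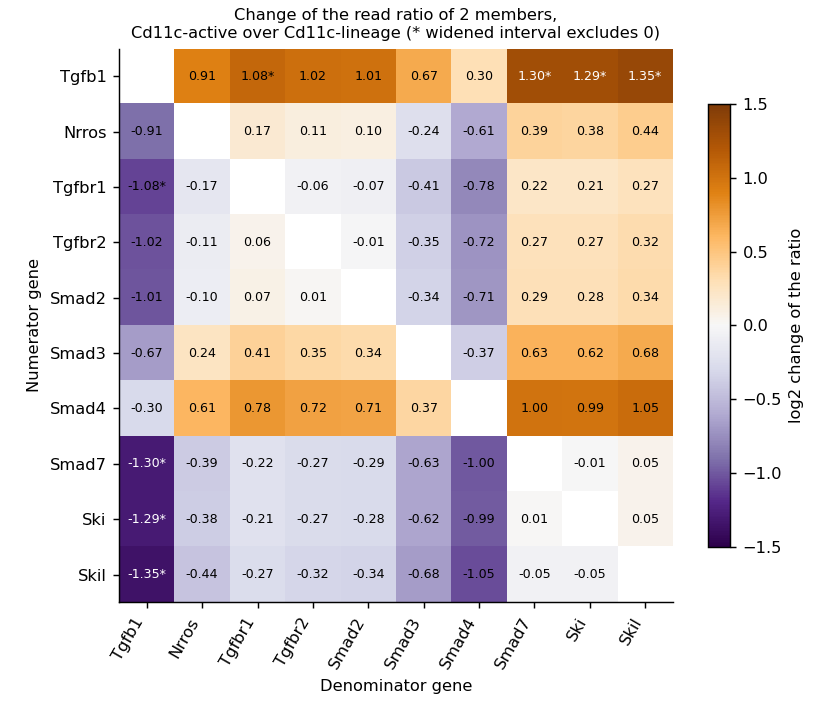
Log2 change, Cd11c-active over Cd11c-lineage, of the read ratio of each pair of members (row over column), where an asterisk marks a widened interval that excludes 0. The Tgfb1 row holds all 4 marked pairs (1.08, 1.30, 1.29 and 1.35, of which 1 stays marked with the trend removed), and the largest change among Smad7, Ski and Skil is 0.0547 in size (-0.27 with the trend removed).

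Some of these values moved with transcript length and GC content. *Tgfb1* has the shortest transcript of the 10, at 2573 bases, and *Tgfbr2* (8092) and *Smad2* (8089) have the longest. After the trend of the ratio with length and GC content over genes of at least 1000 reads was removed, *Tgfb1* was at 0.79, *Smad4* at 0.60, *Smad7* at -0.48 and *Ski* at -0.39, while *Skil* was at -0.21. *Tgfbr1*, *Tgfbr2* and *Smad2*, slightly below 0 before, were then at 0.03, 0.06 and 0.13. No exon of any member overlaps an exon of another gene in the GENCODE M21 annotation (GRCm38, 0 shared bases), which is not the annotation the table was counted on. In the authors' deposited table the log2 fold change is 0.80 for *Tgfb1*, 0.50 for *Smad4*, -0.55 for *Skil* and -0.49 for *Ski*. Those values are relative to library totals.

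Genes around the members were read from lists of pathway roles. Of 121 further pathway genes 94 were listed, 92 had at least 20 reads, and 11 of these were at least 2-fold higher and 6 at least 2-fold lower in Cd11c-active. The background over all genes with that many reads was 23.3% and 21.6%. Of the 61 with at least 1000 reads 24 were above 0 and 37 below, with a median ratio of -0.12. The median of all genes with as many reads was -0.02. With the trend removed 30 were above 0 and 31 below, with a median of -0.0094, and under library totals 18 and 43, with a median of -0.26.

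Around the ligand, the latent complex and its activation, 9 listed genes had at least 1000 reads, with 4 above 0 and 5 below. *Furin*, the convertase that cuts the TGF-beta1 propeptide, was the one past 2-fold, with 3618 and 1938 reads and a ratio of 1.09 (widened interval 0.22 to 1.96). Under library totals its ratio was 0.95, just short of 2-fold. The background was 5.43% higher and 4.14% lower among genes with at least 1000 reads. *Tgfb1* (0.93) and *Furin* (1.09), substrate and protease, were both higher in Cd11c-active, beside 692 against 73.7 CPM of endothelial markers, whose part was not tested. *Furin* stands out here because it was the gene past 2-fold. *Tgfb1* was at 0.80 under library totals (widened -0.09 to 1.78) and 0.79 after trend removal (-0.10 to 1.77), and both intervals included 0. The integrin subunits with the most reads were *Itgb5* with 21441 and 25661 reads (-0.07), *Itgb1* with 9421 and 11641 (-0.12) and *Itgav* with 3877 and 3671 (0.27). In the same order they were at -0.21, -0.26 and 0.13 under library totals. After trend removal they were at -0.25, -0.07 and 0.46. *Itgb3*, named after its values were seen, was at -0.99 on 1113 and 2518 reads (widened -2.12 to 0.15). Under library totals *Itgb3* was at -1.13, past 2-fold in the lower direction, where *Furin* was not past 2-fold. *Itgb8*, also named after its values were seen, whose product with the alpha V subunit opens the NRROS complex, had 0 and 9 reads, with a counting interval that lay below 0 (upper bound -0.79) and a widened interval without bounds.

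Genes of few reads made up most of the others past 2-fold. *Mmp14*, a membrane protease, had 664 and 158 reads (ratio 2.25, widened -0.14 to 5.46). *Plat*, the tissue plasminogen activator, had 313 and 0 reads, and *Mmp9* 0 and 81. By counting error alone 0 reads leave room for 3, and with the overdispersion for 241, so the counting interval of *Mmp9* lay below 0 (upper bound -4.24) and its widened interval did not (upper bound 5.47). Other ligands were scarce: 14 of 19 were not listed, and none of the 5 listed had 1000 reads. Among them *Bmp1*, which despite its name is a metalloprotease, had 327 reads and 1 read, *Tgfb2* 23 and 87, *Gdf15* 62 and 0, and *Gdf11* 0 and 50. *Tgfb1* was the one ligand of the family with more than 1000 reads.

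Among 11 further receptors and co-receptors with reads, 6 had at least 1000, of which 1 was above 0 and 5 below, with a median of -0.36 that was -0.22 after trend removal. *Bmpr2*, the type II receptor for BMPs, had 2864 and 4347 reads (-0.42, widened -1.29 to 0.47), and was at -0.07 after trend removal. *Acvr1b*, the type I activin receptor that also uses SMAD2 and SMAD3, had 754 and 1281 (-0.58, widened -1.92 to 0.74), and *Acvr1* had 785 and 693 (0.37). *Cd109*, a co-receptor, was past 2-fold on 96 and 47 reads (1.21, widened -6.11 to 6.48). *Eng* and *Acvrl1*, receptors typical of endothelium and named after their values were seen, had 595 and 747 reads (-0.14, widened -1.84 to 1.42) and 499 and 381 reads (0.58, widened -1.53 to 2.50), beside 692 and 73.7 CPM of endothelial markers, whose part was not tested.

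Receptor adaptors had 6 of 9 well-read genes above 0, with a median of 0.08, but 3 of 9 and a median of -0.06 under library totals. *Ppp1r15a* had 5104 and 5661 reads (0.04), *Tgfbrap1* 2757 and 2397 (0.39) and *Vps39* 1433 and 1492 (0.13), and *Cav1*, a caveolar coat gene that is abundant in endothelium, had 123 and 0. Under library totals *Ppp1r15a* was at -0.099 and *Vps39* at -0.00796. The SMADs of the BMP branch, *Smad1* (453 and 329 reads) and *Smad5* (1119 and 902), had ratios of 0.65 and 0.50 with widened intervals of -1.30 to 3.04 and -0.85 to 1.73. *Smad6*, the inhibitor of that branch, had 44 and 200 reads (-1.99, widened -6.70 to 3.45). Like *Smad7* it was lower in Cd11c-active, but on few reads.

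Genes of SMAD turnover had 7 of 15 well-read members above 0 and 8 below (median -0.06), and 9 and 6 after trend removal (median 0.07). Under library totals 6 were above 0 and 9 below (median -0.19). *Usp9x*, a deubiquitinase that acts on SMAD4, had 4279 and 5725 reads (-0.23), *Pmepa1*, a TGF-beta target that sequesters SMAD2 and SMAD3, had 2284 and 3093 (-0.25), and *Itch* had 1711 and 2140 (-0.14). After trend removal *Usp9x* and *Itch* were at 0.10 and 0.01. *Usp11* was past 2-fold on 355 and 132 reads (1.61, widened -1.62 to 4.65).

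Among SMAD corepressors and cofactors 4 of 13 well-read genes were above 0 and 9 below, with a median of -0.18. After trend removal 7 were above 0 and 6 below, with a median of 0.00061. Under library totals 2 were above 0 and 11 below, with a median of -0.32. *Tgif1*, a homeodomain corepressor that is also a TGF-beta target, was at -0.65 on 2604 and 4664 reads (widened -1.56 to 0.23), and 4.8% of the 500 genes nearest in abundance were lower. It was lower in Cd11c-active as *Ski* and *Skil* were. *Zeb2* had 4742 and 5984 reads (-0.15) and was at 0.13 after trend removal. *Kat2b*, an acetyltransferase, was past 2-fold on 214 and 598 reads (-1.29, widened -3.62 to 1.095), and *Mecom* had 81 and 0 reads and *Runx3* 21 and 0. In the SMAD-independent branch 1 of 8 well-read genes was above 0, *Rhoa* with 8685 and 8085 reads (0.29), and 7 were below. The median of this branch was -0.18, and -0.32 under library totals. After trend removal 2 were above 0 and 6 below, with a median of -0.06. *Tab2* had 2510 and 2954 reads (-0.05) and *Mapk14*, the kinase p38 alpha, had 2176 and 2959 (-0.26).

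Target genes did not share 1 direction. Of 10 general TGF-beta targets with at least 1000 reads (*Smad7* and *Skil* left out), 7 were above 0 and 3 below, with a median of 0.39. Under library totals and after trend removal 6 were above 0 and 4 below, with medians of 0.25 and 0.24. *Fn1*, the matrix protein fibronectin, had 4586 and 2197 reads (1.25, widened 0.35 to 2.27), and *Junb*, an AP-1 factor, had 15938 and 11305 (0.68, widened 0.13 to 1.25). The interval of *Junb* was -0.0015 to 1.12 under library totals, and after trend removal it was at 0.21 (-0.34 to 0.78). Those below 0 were *Tgif1*, *Pmepa1* and *Bcl2l11* (named after its values were seen, 1205 and 1547 reads, -0.17), beside the members *Smad7* and *Skil*. *Ldlrad4*, like *Pmepa1* an inhibitor of SMAD2 and SMAD3 and also named after its values were seen, was at 0.28 on 1263 and 1185 reads. *Bhlhe40* (137 and 0 reads) and *Ccn2* (43 and 0) were past 2-fold on few reads. Several of these targets are expressed in endothelial cells, whose markers stood at 692 and 73.7 CPM, and the part of those cells was not tested.

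Microglial genes that need TGF-beta lay on both sides of 0. Of 22 such genes, all with at least 1000 reads, 10 were above 0 and 12 below, the median was -0.03, and 0 were past 2-fold. Among all genes with at least 1000 reads 5.43% were at least 2-fold higher and 4.14% lower, so 0 of 22 is near the background. Under library totals 8 were above 0 and 14 below, with a median of -0.16, and after trend removal 9 and 13, with a median of -0.07. The genes farthest from 0, named after their values were seen, were *Slc2a5* (969 and 1617 reads, -0.55), *Siglech* (2139 and 3539, -0.54) and *Lrrc3* (1931 and 1541, 0.51), each with a widened interval that included 0. The microglial markers *P2ry12* (-0.36) and *Tmem119* (-0.29, or -0.60 after trend removal), named in the same way, were also below 0 with widened intervals that included it. *Rhob* (0.44, widened -0.14 to 0.999) and *Cst3* (0.38, widened 0.002 to 0.78), likewise named, were above 0. *Cst3* was the 1 gene of this list whose widened interval excluded 0. Its interval was -0.13 to 0.64 under library totals and -0.55 to 0.23 after trend removal. *Csf1r*, the CSF1 receptor, had 79075 and 92452 reads (-0.04, widened -0.25 to 0.17), and *Sparc* 66324 and 67168 (0.17, widened -0.08 to 0.41). The widened intervals of this pair leave room for differences of at most 0.41 in either direction.

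Genes known to be raised in microglia without TGF-beta signalling had 10 of 13 well-read members above 0 and 3 below, with a median of 0.33 that was 0.19 under library totals and 0.11 after trend removal (8 above and 5 below). This list holds *Itgax*, whose promoter the sort used, and it was chosen with earlier results of these libraries known, so its direction is not independent evidence. *Apoe* had 142760 and 139781 reads (0.22, widened 0.05 to 0.38), but -0.23 after trend removal (-0.40 to -0.07) and 0.08 under library totals (-0.08 to 0.25). *Axl*, a receptor for dying cells, had 7365 and 7451 (0.17) and *Cd63* 8788 and 7972 (0.33). Under library totals *Axl* was at 0.03 and *Cd63* at 0.19, and after trend removal at 0.11 and 0.10. *Lgals3* (463 and 114 reads, 2.20) and *Gpnmb* (289 and 75, 2.13) were past 2-fold with widened intervals that included 0. Lower in Cd11c-active were *Ms4a7* (0 and 42 reads) and *Mrc1* (262 and 1230, -2.04, widened -4.57 to -0.31), which border macrophages express, and, named after their values were seen, *Cybb* (456 and 828, -0.67, widened -2.29 to 1.05) and *Igf1* (1526 and 2062, -0.25, widened -1.30 to 0.81). After trend removal *Igf1* was at -0.0035. Higher in Cd11c-active, and also named after their values were seen, were *Clec7a* (1179 and 769 reads, 0.80), *Csf1* (3576 and 2352, 0.79) and *Cd9* (6357 and 4592, 0.66). *Spp1* (2721 and 2138, 0.53) and *Lpl* (6359 and 5348, 0.44), named in the same way, were higher too. Each of these higher genes had a widened interval that included 0. The border macrophage markers had 21.2 and 128 CPM in sum, of which *Mrc1* is the largest part, and the part of those cells was not tested.

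**Figure D5:**
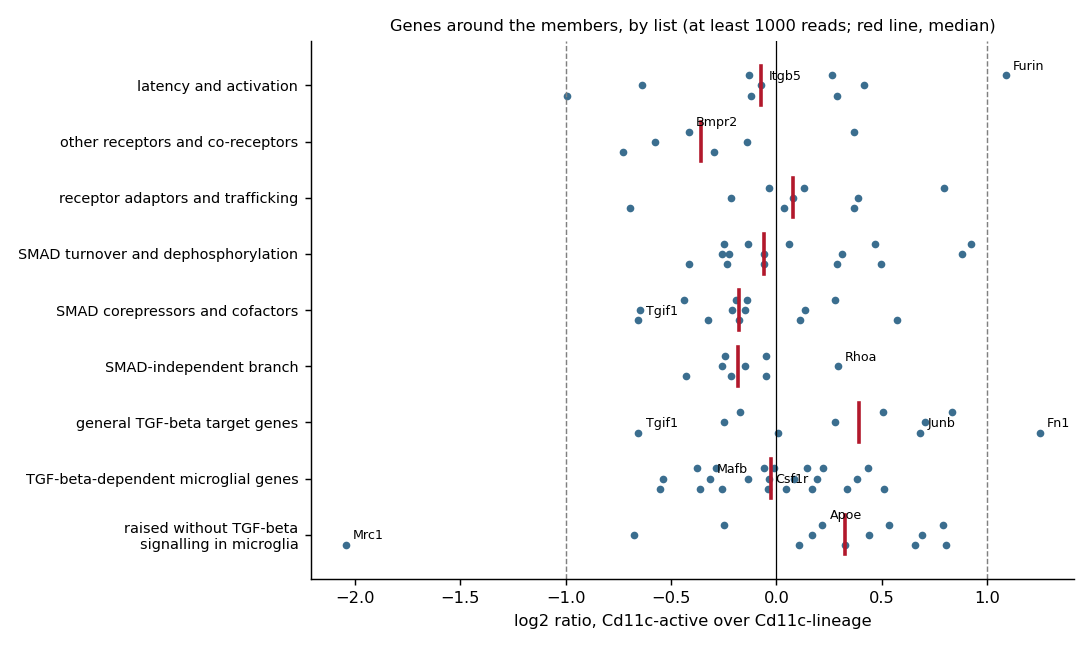
The log2 ratio of each gene with at least 1000 reads in 9 lists around the members (1 point per gene, shifted vertically to avoid overlap, members left out), with the median as a red line and 2-fold as dashed lines. Furin at 1.09 and Fn1 at 1.25 lie beyond the upper dashed line and Mrc1 at -2.04 beyond the lower, while TGF-beta-dependent microglial genes centre on -0.03.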

How the data were processed

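Raw read counts per gene were deposited by the authors for both libraries, per the file headers. The deposited table also holds their log2 fold change and mean log2 CPM. The submitters' processing notes name cutadapt 3.5, STAR 2.7.9a, featureCounts 1.6.3, edgeR 4.0.16 and GRCm39. The annotation, strand setting and treatment of duplicate reads are not given in the sources used here. Per the labels' protocols, ribosomal RNA was depleted and the libraries were stranded. No listed gene had fewer than 6 reads in all. There were 0 columns of other samples. Ribosomal RNA, mitochondrial, 7SK and 7SL genes (34) held 9.32% of Cd11c-active and 3.68% of Cd11c-lineage reads.

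Counts were scaled by TMM (edgeR 4.0.16, R 4.3.3), with factors of 0.954 and 1.05, and the ratio took reads plus 0.5 over effective library size. The tests of edgeR and DESeq2 could not be fitted with 1 library per group, so no p-value is given. Overdispersion was estimated in 5 read ranges from 800 reads up, with doubling bounds, from genes with reads in both libraries, as the robust variance (from the median absolute deviation) over the median counting variance. Genes under 800 reads took the value of the range above them. The choice of these ranges was made after seeing the data. Because the spread over genes stands for error, a real difference carried by most genes would count as error too. Pair intervals are exact conditional odds ratio intervals on divided reads. For sums of genes, the summed reads were divided by the mean overdispersion of those genes, weighted by their reads. This treats the genes as independent, and the spread of such sums was not estimated, so these intervals may be too narrow. Reads have no molecular identifiers, so counting intervals cover counting error only.

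Lengths and GC content came from the longest GENCODE M21 transcript (GRCm38), matched by gene ID for 13499 genes (99.6%). The trend was a robust regression on cubic terms of both in genes with at least 1000 reads. RefSeq promoter windows were found for 6 of the 10 members and are shown for 4. The named genes were all members, the 3 with the most reads of each other list, and up to 4 past 2-fold with the most reads, and some that the rule names are not reported here. With 2 libraries each gene has 1 ratio, so no genes of similar pattern were sought. Members and lists were chosen with earlier results of these data known. Procedures were tested on simulated data with the same overdispersion for all genes and no trend with length or GC content. The simulation therefore does not cover the rise of overdispersion with reads seen here. Calculations ran in Python 3.11.15 (scipy 1.17.1, statsmodels 0.14.6, numpy 2.4.6, pandas 2.3.3), and matplotlib 3.10.9 drew the figures.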

Additional observations from a re-analysis of the deposited data

How the results depend on the processing

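No paired analysis was possible because each group has 1 library, and leaving out a library was not possible for the same reason. Over 7 alternatives, 6 of the 10 members (Tgfb1, Smad3, Smad4, Smad7, Ski and Skil) kept the sign of their ratio. Tgfb1 lay between 0.79 and 0.93, Smad3 between 0.13 and 0.26, and Smad4 between 0.50 and 0.63. Smad7 lay between -0.50 and -0.36, Ski between -0.49 and -0.36, and Skil between -0.55 and -0.21. The other 4 changed sign: Nrros was -0.11 under library totals, and Tgfbr1, Tgfbr2 and Smad2 were 0.03, 0.06 and 0.13 with the trend removed. The median of the members was -0.0813, and it was -0.22 under library totals, -0.0873 under DESeq2 size factors (DESeq2 1.42.0) and 0.0448 with the trend removed. No member passed 2-fold under any of the 7. With at least 100 reads, fewer genes were tested, and 7 of the further pathway genes were at least 2-fold higher and 3 lower (11 and 6 with at least 20), against 1802 and 1711 of all genes (3033 and 2818). The numbers of genes tested at that minimum are not given here, so these counts cannot be compared as shares. Under library totals 10 further pathway genes were at least 2-fold higher and 7 lower, and all genes split into 2814 higher and 3081 lower. With 1 overdispersion of 80.2 for all genes, chosen after the data were seen, the widened interval of Skil lay below 0 (-0.81 to -0.04) and that of Tgfb1 was 0.14 to 1.77. Widened intervals under the other settings were also added after the data were seen: that of Tgfb1 was 0.04 to 1.91 with TMM and 0.039 to 1.91 with DESeq2 size factors, but included 0 under library totals (-0.09 to 1.78), with the trend removed (-0.10 to 1.77) and with overdispersion estimated after that removal (-0.04 to 1.64). Counting error is small for all 10 members, and the width of the widened intervals, over 2 on the log2 scale for Nrros, Smad2, Smad3 and Smad4, comes from the spread among genes.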
